A study of Mus musculus with 2 samples.

Results

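Nuclear receptors are transcription factors whose ligand-binding domain reads hormones, sterols, fatty acids, retinoids or other lipids, and most bind DNA as pairs of receptors. Retinoid X receptors (RXRs) are the shared partner of the liver X receptors (LXRs), the peroxisome proliferator-activated receptors (PPARs), the retinoic acid receptors and several others. In macrophages the LXRs sense oxidised cholesterol and switch on genes of cholesterol export, and PPAR gamma is known for its part in lipid handling. The 47 mouse nuclear receptor genes considered here were chosen by symbol as the members of this superfamily. Of these, 46 had a row under that symbol among the 50608 rows of the table. The remaining one, Nr0b1, was not analysed here.

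RNA was sequenced from peritoneal macrophages, phagocytes of the abdominal cavity, of C57BL6J mice, with both sexes pooled and the stage labelled E15.5. The treated group was 1 library of cells given GW3965, a synthetic LXR agonist, and its control was 1 library of cells given the solvent DMSO. Neither dose nor duration of the treatment was stated. The GW3965 column shares only the start of its name with that sample's label, and every statement on GW3965 rests on this match. Values are FPKM, fragments per kilobase of gene scaled to depth, as the authors deposited them. Since GW3965 and DMSO had 1 library each, the treatment could be neither tested nor checked in replicates, and each interval below is a 95% interval for counting error alone. In bulk RNA, fewer cells of a type and less RNA per cell cannot be told apart.

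The depth, recovered from the steps of low FPKM values, was about 75300000 reads for GW3965 and 101900000 for DMSO. All 10 general macrophage markers were measured, that is, they had a mean of at least 1 FPKM over both libraries, with Lyz2 at 4822 FPKM in GW3965 and 4052 FPKM in DMSO. None of 8 markers of resident peritoneal macrophages was measured, among them Gata6 at 0.618 FPKM in GW3965 and 0.607 FPKM in DMSO. Mesothelial markers summed to 7.44 FPKM in GW3965 and 4.33 FPKM in DMSO, with 2 of 8 measured. Fibroblast markers summed to 61.4 FPKM in GW3965 and 54.9 FPKM in DMSO, with 6 of 8 measured. The largest part was Gsn, at 35.3 FPKM in GW3965 and 37.2 FPKM in DMSO, against the direction of the sum. Next came Dcn, at 11.6 FPKM in GW3965 and 6.91 FPKM in DMSO. B cell markers summed to 77.5 FPKM in GW3965 and 20.2 FPKM in DMSO, with 4 of 7 measured. Most of the difference in that sum was Ighm, at 64.4 FPKM in GW3965 and 9.26 FPKM in DMSO. The second highest marker, Cd22, had 9.11 FPKM in GW3965 and 8.20 FPKM in DMSO, a ratio of 1.11. Of the other marker lists, endothelial cells had 2 of 6 measured, T or NK cells 1 of 8, dendritic cells 1 of 7, neutrophils 1 of 6, and mast cells, erythroid cells and hepatocytes 0. No marker with a row was at 0 in both libraries. The part of any of these cells in the receptor values was not tested.

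A minority of the receptor genes carried nearly all of the family's RNA. The measured members numbered 16 and summed to 118.0 FPKM in GW3965 and 100.1 FPKM in DMSO. The 30 unmeasured members together summed to 4.28 FPKM in GW3965 and 2.89 FPKM in DMSO. The member just above the limit was Rara, at a mean of 1.07 FPKM, and the one just below it was Nr6a1, at 0.710 FPKM. The 5 highest genes, Pparg, Rxra, Nr3c1, Nr1h3 and Esrra, held 59.4% of the family's FPKM sum in GW3965 and 59.1% in DMSO.

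The promoters of the measured members were rich in CpG, the dinucleotide whose density marks the promoters of many widely expressed genes. RefSeq windows of GRCm38.p6, from 250 bases before to 50 bases after a start listed for a gene, were matched by symbol. They were found for 42 of the 46 genes. Some genes had several windows, and the first listed window of each gene was used. The 14 measured genes with a window had a median of 26 CpGs per window, and the 28 unmeasured ones had a median of 11.5. The same medians over all protein-coding rows were 22 CpGs for 6971 measured genes and 6 CpGs for 8319 unmeasured ones, so the split is not a feature of the receptors alone. The 6 windows printed here, with 2 to 35 CpGs, show windows poor and rich in CpG, for the LXRs that bind GW3965, the pair of REV-ERB clock repressors, the xenobiotic receptor Nr1i2 and the immediate early receptor Nr4a1. They run 5′ to 3′ on the gene's own strand, and capitals mark each CpG.
Nr1h3 (chr2:91195067-91195366, minus strand): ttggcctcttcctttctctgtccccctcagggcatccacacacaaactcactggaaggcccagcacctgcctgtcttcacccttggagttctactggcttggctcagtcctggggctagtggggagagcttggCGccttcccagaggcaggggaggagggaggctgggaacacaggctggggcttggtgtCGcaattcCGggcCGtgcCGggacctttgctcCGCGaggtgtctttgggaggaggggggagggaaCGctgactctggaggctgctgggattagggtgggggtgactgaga
Nr1h2 (chr7:44553916-44554215, minus strand): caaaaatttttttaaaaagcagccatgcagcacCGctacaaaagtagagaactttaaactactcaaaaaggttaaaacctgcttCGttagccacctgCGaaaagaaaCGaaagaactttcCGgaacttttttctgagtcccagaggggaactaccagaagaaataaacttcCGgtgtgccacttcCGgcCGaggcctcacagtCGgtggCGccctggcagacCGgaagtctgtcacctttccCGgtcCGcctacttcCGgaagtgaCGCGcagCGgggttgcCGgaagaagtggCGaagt
Nr1d2 (chr14:18239057-18239356, minus strand): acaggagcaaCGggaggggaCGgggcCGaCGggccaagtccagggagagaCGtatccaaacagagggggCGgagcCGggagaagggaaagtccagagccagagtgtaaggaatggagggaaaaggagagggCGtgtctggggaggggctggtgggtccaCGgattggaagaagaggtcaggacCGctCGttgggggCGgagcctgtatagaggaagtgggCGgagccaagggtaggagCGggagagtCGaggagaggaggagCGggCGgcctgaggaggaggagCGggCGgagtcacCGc
Nr1d1 (chr11:98775328-98775627, minus strand): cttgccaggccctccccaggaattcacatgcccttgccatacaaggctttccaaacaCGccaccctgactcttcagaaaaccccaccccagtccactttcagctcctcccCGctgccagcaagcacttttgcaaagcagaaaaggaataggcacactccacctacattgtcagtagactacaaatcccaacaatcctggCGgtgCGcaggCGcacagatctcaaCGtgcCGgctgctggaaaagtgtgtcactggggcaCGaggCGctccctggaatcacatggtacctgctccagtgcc
Nr1i2 (chr16:38294775-38295074, minus strand): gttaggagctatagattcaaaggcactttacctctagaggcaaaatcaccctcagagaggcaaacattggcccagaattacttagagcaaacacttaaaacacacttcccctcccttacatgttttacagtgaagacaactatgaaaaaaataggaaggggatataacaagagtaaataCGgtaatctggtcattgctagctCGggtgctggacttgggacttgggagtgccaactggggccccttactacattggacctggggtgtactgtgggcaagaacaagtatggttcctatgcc
Nr4a1 (chr15:101266596-101266895, plus strand): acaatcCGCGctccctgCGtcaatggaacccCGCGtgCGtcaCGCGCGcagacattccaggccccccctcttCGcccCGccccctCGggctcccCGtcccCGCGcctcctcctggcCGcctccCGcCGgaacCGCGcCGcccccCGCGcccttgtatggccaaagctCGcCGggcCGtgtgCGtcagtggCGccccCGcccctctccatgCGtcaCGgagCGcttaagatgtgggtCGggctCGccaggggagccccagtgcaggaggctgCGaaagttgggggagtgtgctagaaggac

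The window of Nr1h2 held 19 CpGs and that of Nr1h3 held 8, although both genes were measured. The windows printed for Nr1h3 and Nr4a1 lay inside the gene bounds of GENCODE M21 (chr2:91184061-91202834 and chr15:101254269-101274795). Their CpG counts thus concern internal starts. The window of Nr1d2 held 20 CpGs against 9 in that of its low paralogue Nr1d1. Nr1i2 had 2 CpGs and was unmeasured, whereas Nr4a1 had 35 and was unmeasured as well. The LXR-type repeat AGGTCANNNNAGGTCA, searched on both strands, was in the windows of none of the 42 genes, and in 0.0152% of all 32851 RefSeq windows. The single element AGGTCA, which lies inside that repeat, was in 3 of the 14 measured and 3 of the 28 unmeasured windows (21.4% and 10.7%). Among protein-coding rows it was in 835 of 6971 measured and 1296 of 8319 unmeasured windows, and among all windows in 16.3%. The GC box GGGCGG was in 10 of the 14 measured windows and 12 of the 28 unmeasured ones (71.4% and 42.9%). Among protein-coding rows it was in 66.7% of measured and 34.2% of unmeasured windows, and among all windows in 35.7%. The absence of a motif says only that its letters are not in these 300 bases.

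**Figure D1:**
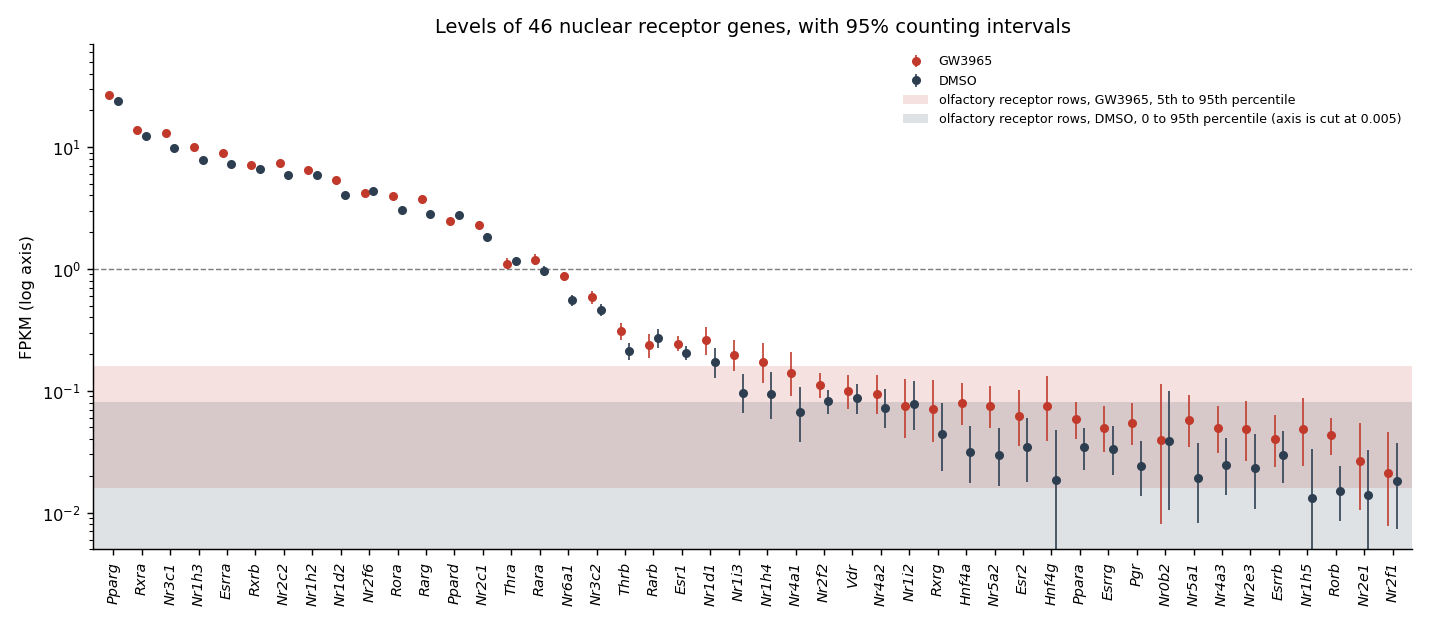
FPKM of the 46 nuclear receptor genes (log axis), ordered by mean level, with red points for GW3965, dark points for DMSO and bars for 95% counting intervals. The dashed line is 1 FPKM and the bands run up to the 95th percentile of olfactory receptor rows. The first 16 genes are measured, and most genes on the right lie inside the bands.

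Both LXR genes, whose receptors bind GW3965, and 2 of the 3 RXR genes were measured. Nr1h3 (LXR alpha, chr2:91184061-91202834, minus strand) had 10.1 FPKM in GW3965 (2212 reads) and 7.80 FPKM in DMSO (2322 reads), a ratio of 1.29 (1.22 to 1.37). Nr1h2 (LXR beta, chr7:44549616-44553951, minus strand) had 6.48 FPKM in GW3965 and 5.87 FPKM in DMSO, a ratio of 1.10 (1.04 to 1.17). Gene positions are those of GENCODE M21 on GRCm38. LXR alpha is itself known as an LXR target in human macrophages, and its ratio here lay close to the median ratio of 1.25 over all 11889 measured rows.

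Of the RXRs, Rxra had 13.7 FPKM in GW3965 and 12.4 FPKM in DMSO, a ratio of 1.10 (1.07 to 1.14). Rxrb had 7.18 FPKM in GW3965 and 6.58 FPKM in DMSO, a ratio of 1.09 (1.03 to 1.16). The third isotype, Rxrg, rested on 13 reads in GW3965 and 11 reads in DMSO. Both measured partners were thus less far above 1 than the median row.

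Among lipid-sensing partners of RXR, Pparg was the most abundant receptor gene in both libraries. It had 26.9 FPKM in GW3965 and 23.7 FPKM in DMSO, above 91.1% of measured rows in GW3965 and 91.9% in DMSO. Its ratio was 1.14 (1.10 to 1.17). Ppard, the widely expressed fatty acid receptor PPAR delta, had 2.46 FPKM in GW3965 and 2.78 FPKM in DMSO, a ratio of 0.883 (0.830 to 0.938). Ppard was the only measured member whose counting interval lay wholly below 1, but the median ratio of all measured rows was 1.25. The intervals of Pparg, Nr1h2, Rxra, Rxrb, Thra and Nr2f6 also lay wholly below that median. The share of all rows with such intervals was not computed. Ppara, which drives fatty acid oxidation in liver, rested on 34 reads in GW3965 and 27 reads in DMSO.

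Retinoic acid receptors were led by the gamma isotype. Rarg had 3.77 FPKM in GW3965 and 2.80 FPKM in DMSO, a ratio of 1.35 (1.24 to 1.46), and Rara had 1.19 FPKM in GW3965 and 0.957 FPKM in DMSO. Rarb had 0.235 FPKM in GW3965 and 0.269 FPKM in DMSO, but 34.1% of its exon bases overlap exons of Top2b on the opposite strand, which had 12.1 FPKM in GW3965 and 8.94 FPKM in DMSO. Neither the labels nor the processing notes say that strand was kept, and without strand the reads of such pairs cannot be told apart. The thyroid hormone receptor gene Thra had 1.10 FPKM in GW3965 and 1.15 FPKM in DMSO, a ratio of 0.957 (0.836 to 1.09). Thrb had 0.308 FPKM in GW3965 and 0.211 FPKM in DMSO.

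The clock receptors divided in the same uneven way. Nr1d2 (REV-ERB beta, a repressor of the clock gene Arntl) had 5.35 FPKM in GW3965 and 4.02 FPKM in DMSO, a ratio of 1.33 (1.25 to 1.42). Nr1d1 (REV-ERB alpha) had only 0.259 FPKM in GW3965 and 0.171 FPKM in DMSO. Exons of Nr1d1 and Thra overlap tail to tail by 263 bases on opposite strands, which is 8.55% of the Nr1d1 exon length. Rora (ROR alpha, which binds the same elements as the REV-ERBs and activates) had 3.96 FPKM in GW3965 and 3.02 FPKM in DMSO, a ratio of 1.31 (1.25 to 1.36).

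Of the steroid and steroid-like receptors, the glucocorticoid receptor gene Nr3c1 was the most abundant. It had 13.1 FPKM in GW3965 and 9.72 FPKM in DMSO, and its ratio of 1.35 (1.30 to 1.39) gave the highest log2 ratio of the measured members on the scale with 1 FPKM added, 0.39. Its relative Nr3c2, the mineralocorticoid receptor gene, had 0.583 FPKM in GW3965 and 0.460 FPKM in DMSO. Esrra (ERR alpha, a regulator of mitochondrial genes) had 8.88 FPKM in GW3965 and 7.29 FPKM in DMSO, a ratio of 1.22 (1.16 to 1.27).

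Of the orphan receptors of the NR2 group, Nr2c1, Nr2c2 and Nr2f6 were measured. Nr2c2 (TR4) had 7.38 FPKM in GW3965 and 5.85 FPKM in DMSO, a ratio of 1.26 (1.23 to 1.30), and 30.7% of its exon bases overlap Mrps25 on the opposite strand. Nr2c1 (TR2) had 2.30 FPKM in GW3965 and 1.84 FPKM in DMSO, a ratio of 1.25 (1.12 to 1.38). Nr2f6 (EAR2) had 4.21 FPKM in GW3965 and 4.39 FPKM in DMSO, a ratio of 0.959 (0.890 to 1.03). More than most, that row is uncertain, since 54.4% of its exon bases overlap Ocel1 on the opposite strand, at 2.78 FPKM in GW3965 and 2.29 FPKM in DMSO.

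The order of levels was nearly the same in both libraries. From the top it ran Pparg, Rxra, Nr3c1, Nr1h3 and Esrra in both. In GW3965 there followed Nr2c2, Rxrb, Nr1h2, Nr1d2, Nr2f6, Rora, Rarg, Ppard, Nr2c1, Rara and Thra. In DMSO there followed Rxrb, Nr1h2, Nr2c2, Nr2f6, Nr1d2, Rora, Rarg, Ppard, Nr2c1, Thra and Rara. The counting intervals of Rxra and Nr3c1 overlapped in GW3965 and those of Nr1h3 and Esrra overlapped in DMSO, so these neighbours were not separated there. Rarg, Rora and the gene ranked beside them (Nr2f6 in GW3965, Ppard in DMSO) formed a further group of overlapping neighbours. The other overlapping neighbours were Nr2c2 with Rxrb, Ppard with Nr2c1 and Rara with Thra in GW3965, and Nr1h2 with Nr2c2 and Nr2f6 with Nr1d2 in DMSO. Without replicates, the spread between cultures behind this order is unknown.

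Against the whole table, 13 of the 16 measured receptors had log2 ratios inside the central 90% of rows, and the others lay below it. The log2 ratio was taken with 1 FPKM added, which understates the difference of low genes, and a row was called higher or lower at 1.5-fold or more. None of the 16 members was called in either direction, while 3.46% of the 11889 measured rows were called higher and 0.0757% lower. At those shares fewer than 1 call would be counted among 16 genes, so a count of 0 is near the background and is no result about the receptors. The members' median log2 ratio was 0.20, beside 0.24 for all measured rows. Relative to that row median, which serves as 0 from here on under the name centred, 1.38% of rows were called higher and 0.336% lower, and again no member was. Their centred log2 ratios ran from -0.37 for Ppard to 0.15 for Nr3c1, with 7 above 0 and 9 below. The central 90% of rows ran from -0.27 to 0.28 and held 13 of the 16 members. Ppard, Nr2f6 at -0.29 and Thra at -0.28 lay below it.

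**Figure D2:**
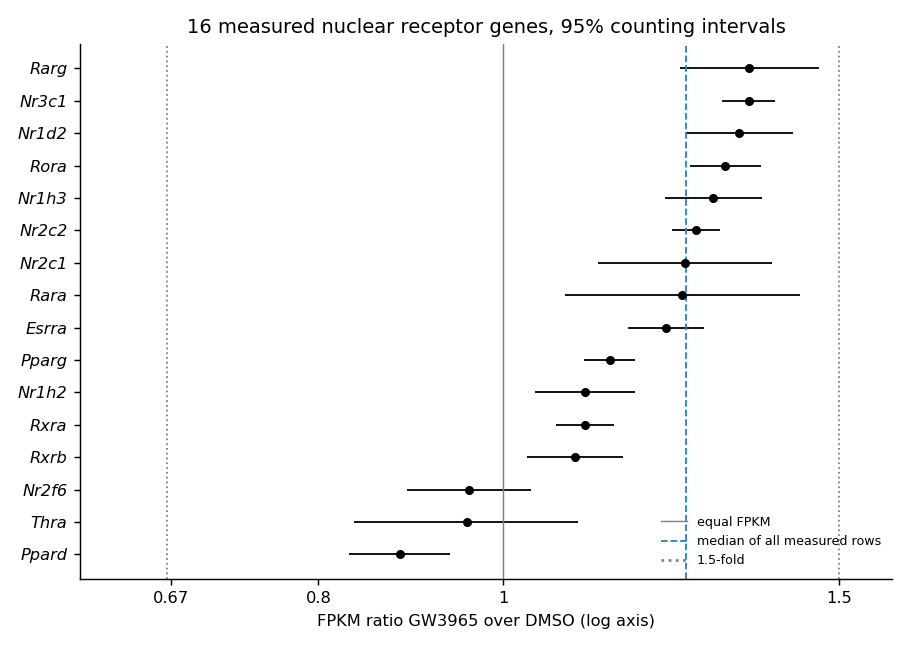
FPKM ratio of GW3965 over DMSO (log axis, nothing added) of the 16 measured receptor genes, with bars for 95% counting intervals. The dashed line is the median of all measured rows, 1.25, and no point reaches the dotted 1.5-fold lines. Ppard alone has its interval wholly below 1, and several other genes have theirs wholly below the dashed line.

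As FPKM were deposited, 13 of the 16 counting intervals lay wholly above 1, 1 lay below and 2 spanned it. No such count was made over all measured rows, whose median ratio was 1.25, so these counts are no result about the receptors. The direction of most members depended on how the libraries were scaled, since 10 of the 16 log2 ratios changed sign under at least 1 alternative. Centring changed the sign of 6, scaling to the same upper quartile changed 5 and scaling to the same sum changed 3. Of the 16 measured members only Nr3c1 was called under any alternative, when both libraries were scaled to the same sum of FPKM. That setting called 2604 rows higher in all.

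**Figure D3:**
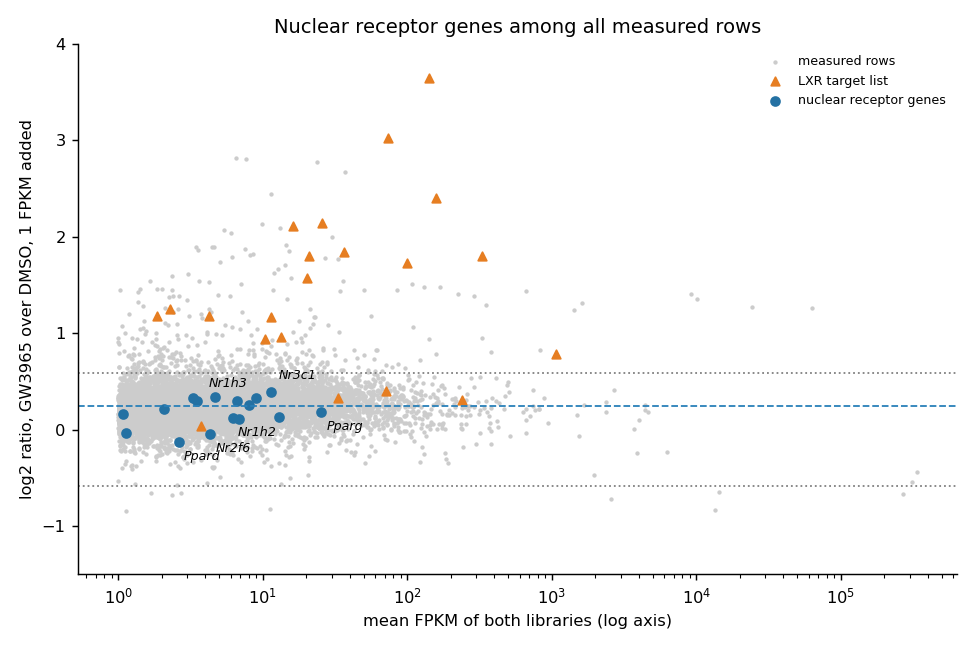
Log2 ratio of GW3965 over DMSO with 1 FPKM added against mean FPKM (log axis) of all measured rows, with circles for the 16 receptor genes and triangles for measured LXR target genes. The dashed line is the row median of 0.24 and the dotted lines are 1.5-fold. The circles lie within the dotted lines, and 17 of the 21 triangles lie above the upper one.

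Ratios between isotypes within a library do not depend on how the library is scaled, and 7 pairs were compared. The FPKM ratio of Nr1h3 to Nr1h2 was 1.55 in GW3965 and 1.33 in DMSO, a change of 1.17-fold (1.07 to 1.27). LXR alpha thus made up 60.8% of LXR FPKM in GW3965 and 57.1% in DMSO. Pparg to Ppard stood at 10.96 in GW3965 and 8.51 in DMSO, a change of 1.29-fold (1.20 to 1.38). For Thra to Thrb the ratio was 3.59 in GW3965 and 5.48 in DMSO, a change of 0.656-fold (0.498 to 0.863). These 3 pairs had intervals that left out 1, for counting error only, and no such count was made over other gene pairs. Thrb was unmeasured, and its ratio of GW3965 over DMSO was 1.46. Protein-coding rows at a mean of 0.1 to 1 FPKM had a median ratio of 1.34. The part of this shift of low rows in the Thra to Thrb change was not tested.

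For the other pairs the interval of the change included 1. Rxra to Rxrb was 1.90 in GW3965 and 1.88 in DMSO, a change of 1.01-fold (0.946 to 1.08). Nr2c2 to Nr2c1 had a change of 1.01-fold (0.908 to 1.13), and Rarg to Rara one of 1.08-fold (0.919 to 1.28). Nr1d2 to Nr1d1 had 0.879-fold (0.587 to 1.31), where the 57 reads of Nr1d1 in GW3965 and 51 in DMSO set the width. How much such ratios vary between cultures was not measured.

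**Figure D4:**
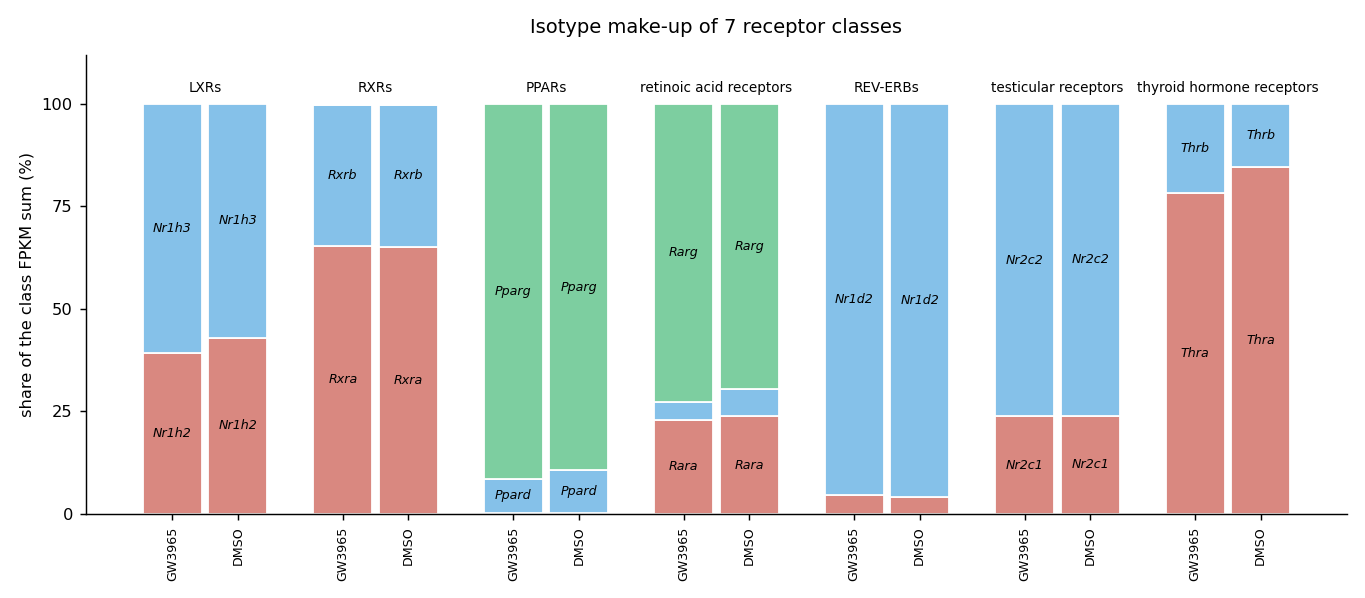
Share of each class's FPKM sum (%, stacked bars) held by its isotypes in 7 receptor classes, with the GW3965 bar left of the DMSO bar. Unlabelled slivers are Rxrg, Ppara, Rarb and Nr1d1. Nr1h3 holds 60.8% of the LXR bar in GW3965, against 57.1% in DMSO, and each class has the same leading isotype in both libraries.

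Of the 30 unmeasured receptors, 22 did not exceed in both libraries the level of genes taken to be silent, and 8 did. The share of all unmeasured protein-coding rows above that level was not computed, so the count of 8 has no background beside it. Olfactory receptor genes, used as a silent class because the nose is their main site of expression, had 1084 protein-coding rows with a median of 0.0687 FPKM in GW3965 and 0.0260 FPKM in DMSO. The unmeasured receptors had a median of 0.0747 FPKM in GW3965 (lowest 0.0211, highest 0.868) and 0.0365 FPKM in DMSO (lowest 0.0131, highest 0.551). Their ratio of GW3965 over DMSO was above 1 in 28 of 30 and at least 1.5 in 18, or 60.0%. Among all 10470 unmeasured protein-coding rows above 0 in both libraries, 55.8% reached a ratio of 1.5. Their share with a ratio above 1 was not computed. The receptors' median ratio was 1.65, beside 1.62 for those rows. Olfactory rows above 0 in both libraries had a median ratio of 2.37. With 0.1 FPKM added in place of 1 and no filter, 1 of the 46 members passed 1.5-fold, the unmeasured Nr1i3 at a log2 ratio of 0.60. The share of all rows passing at that setting was not computed, so this count has no background beside it. The share of low receptors with a high ratio is near the background, and it is no result about the receptors.

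Of the unmeasured genes, 8 stood above the 95th percentile of olfactory rows in both libraries, which was 0.160 FPKM in GW3965 and 0.0809 FPKM in DMSO. They were Nr6a1, Nr3c2, Thrb, Rarb, Esr1, Nr1d1, Nr1i3 and Nr1h4. Nr6a1 (GCNF, a repressor known from germ cells and embryos) had 0.868 FPKM in GW3965 (481 reads) and 0.551 FPKM in DMSO (413 reads), a ratio of 1.58 (1.38 to 1.80). Esr1 (oestrogen receptor alpha) had 0.243 FPKM in GW3965 and 0.205 FPKM in DMSO, a ratio of 1.18 (0.976 to 1.44). Nr1h4 (FXR, the bile acid receptor) had 0.173 FPKM in GW3965 (30 reads) and 0.0936 FPKM in DMSO (22 reads). Nr1i3 (CAR, a xenobiotic receptor) had 0.198 FPKM in GW3965 and 0.0964 FPKM in DMSO, but 74.9% of its exon bases overlap Tomm40l on the opposite strand, at 3.05 FPKM in GW3965 and 2.48 FPKM in DMSO.

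The other 22 did not exceed that level in both libraries. They include the NR4A immediate early receptors, with Nr4a1 at 0.140 FPKM in GW3965 (25 reads) and 0.0663 FPKM in DMSO (16 reads). Vdr, the vitamin D receptor gene, had 0.0987 FPKM in GW3965 (42 reads) and 0.0868 FPKM in DMSO (50 reads). The liver and gut receptors Hnf4a, Hnf4g, Nr1h5, Nr1i2, Nr5a2 and Nr0b2 rested on 3 to 28 reads in GW3965 and 4 to 20 reads in DMSO. Ppara, Rxrg, Rorb, Nr2e1, Nr2e3, Nr2f1, Nr2f2, Esr2, Esrrb, Esrrg, Pgr, Nr4a2, Nr4a3 and Nr5a1 complete the group. At this depth, none of these genes stood above the level of the olfactory rows in both libraries at once. In DMSO alone, Vdr and Nr2f2 (0.0816 FPKM) were above the level of 0.0809 FPKM.

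Target genes of the receptors were counted by list. Of 21 measured LXR target genes 17 were called higher and 0 lower as deposited, and 16 and 0 when centred, against the 3.46% and 1.38% of all rows. Their median centred log2 ratio was 1.01. The cholesterol transporter gene Abca1 had 261 FPKM in GW3965 and 19.9 FPKM in DMSO, and the desaturase genes Scd1 and Scd2 and the fatty acid synthase gene Fasn had centred log2 ratios of 2.78, 2.16 and 1.90. These genes were listed as known targets with earlier results of these libraries in view, so their direction is no independent evidence.

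Of 13 measured PPAR targets 4 were called higher and 0 lower, against 3.46% and 0.0757% of all rows, and 1 was called higher when centred, against 1.38%. Their centred median was 0.18, and no test set this list against the others. With both libraries at the same sum of FPKM 8 were called, while 2604 of the 11889 measured rows were called higher. With the same upper quartile 1 was called, while 166 of those rows were called higher. The lipid droplet gene Plin2 had 432 FPKM in GW3965 and 224 FPKM in DMSO, and the fatty acid transporter gene Cd36 had 484 FPKM in GW3965 and 277 FPKM in DMSO. Lpin1 and Angptl4 had centred log2 ratios of 0.58 and 0.52. Retinoic acid targets had 3 of 12 measured and 1 called, the transglutaminase Tgm2, which also stands in the LXR list, at 18.1 FPKM in GW3965 and 8.83 FPKM in DMSO. Without it, Rai14 and Dhrs3 had centred log2 ratios of -0.15 and -0.02.

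Glucocorticoid targets had 10 of 15 measured, 1 called higher as deposited and 0 when centred. The called gene was the metallothionein Mt2, at 3.34 FPKM in GW3965 and 1.52 FPKM in DMSO, and Tsc22d3, Dusp1 and Per1 had centred log2 ratios of 0.26, -0.28 and -0.25. The clock list had 8 of 18 measured and 0 called, with Cry1 at 0.29, Clock at 0.22, Per1 at -0.25 and Nfil3 at -0.32 on the centred scale. Targets of ERR had 10 of 13 measured and 0 called, with Mdh1 at 0.18, Cs at 0.13 and Ndufs7 at -0.19 on the centred scale. Thyroid hormone targets had 4 of 8 measured and 0 called, of which Cpt1a was farthest from the median at 0.29. For the vitamin D receptor 3 of 8 were measured and 0 called, with Cd14 at 0.18. Immediate early genes, the usual companions of the NR4A receptors, had 14 of 22 measured and 1 called higher as deposited, Fosl2, with a centred value of 0.35 beside -0.42 for Klf4.

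**Figure D5:**
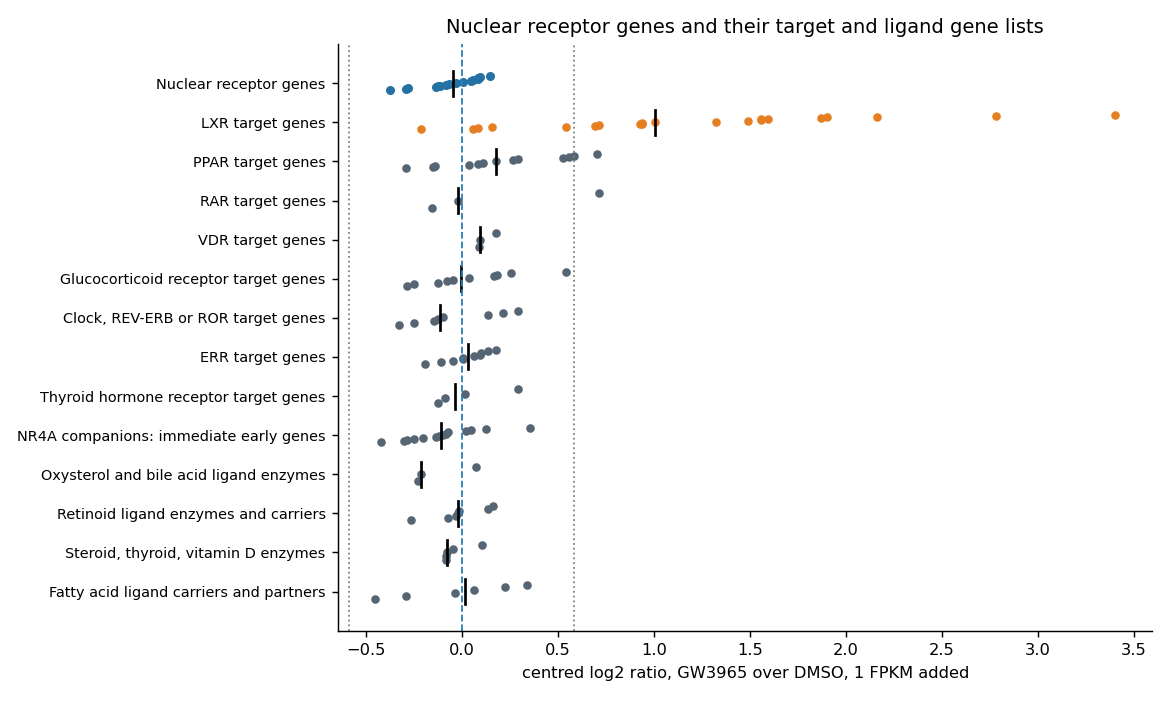
Centred log2 ratio of GW3965 over DMSO (1 FPKM added) for each measured gene of the receptor family, of the receptors' target lists and of the ligand lists, with black bars for medians. Dotted lines are 1.5-fold and the dashed line is the row median. The LXR targets spread to the right, at a median of 1.01, while the receptor genes lie around a median of -0.05.

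Enzymes and carriers that supply or remove receptor ligands gave no call in any of 4 lists with 1 FPKM added. With 0.1 FPKM added, 1 retinoid gene, 1 gene of the steroid list and 2 fatty acid carriers or partners were called higher. That setting called 1024 of the 11889 measured rows higher. At the same sum of FPKM 1 retinoid gene and 2 of the fatty acid list were called higher, as were 2604 of all measured rows. Oxysterol and bile acid enzymes had 3 of 11 measured, among them Cyp27a1, the sterol hydroxylase that makes the LXR ligand 27-hydroxycholesterol, at 3.47 FPKM in GW3965 and 3.38 FPKM in DMSO. Retinoid enzymes and carriers had 7 of 19 measured, among them Aldh1a1, which makes retinoic acid from retinal, at 1.41 FPKM in GW3965 and 0.853 FPKM in DMSO. In the steroid, thyroid hormone and vitamin D list 5 of 16 were measured, with Cyp2r1, a vitamin D 25-hydroxylase, at 1.39 FPKM in GW3965 and 0.879 FPKM in DMSO. The fatty acid carrier list had 6 of 13 measured. In it Fabp4 had 25.6 FPKM in GW3965 and 26.5 FPKM in DMSO, Fabp3 had a centred log2 ratio of -0.45 and Fabp7 one of 0.34.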

How the data were processed

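The authors deposited 1 table of FPKM values with 1 column per library. GRCm38 (mm10) is the build in the submitters' processing notes, which also list HTSeq 0.5.4p3 and STAR 2.3.0 without saying what each did. Which annotation, strand setting or filters were used is not stated. Libraries were TruSeq ones from total RNA, per the labels' protocols.

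Members and gene lists were chosen with earlier results of these data known. The members are named in the report, with both values for each measured one. Up to 4 measured genes of each of 13 further gene lists, those farthest from the row median, were eligible to be named, and up to 2 of each of 12 marker lists, by mean level. Symbols with no row were matched through RefSeq synonyms.

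Low FPKM values of both libraries differed by ratios of whole numbers once a depth factor of 1.353 was allowed, in 81.7% of 18518 rows, against 0.00540% with the factor moved by 1%. Exon lengths of GENCODE M21, reduced by 99 bases, then fixed the depths, where 320 of 10418 rows met. Reads of a member are the whole numbers at the gene length nearest to the annotated one. They were found for all 46 members, and where that length differs from the annotated one the number could be a multiple of the true one. Ratio intervals are exact conditional (Clopper-Pearson) ones, level intervals are exact Poisson ones, and isotype changes have conditional odds ratio intervals. No p-value was computed. The steps were tested on simulated reads. Figures were drawn with matplotlib 3.10.9, intervals came from scipy 1.17.1, and tables were handled with pandas 2.3.3 and numpy 2.4.6 under Python 3.11.15.

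Alternatives were pseudocounts of 0.1 and 0.5, no filter, a mean of at least 5 FPKM, centring, the same upper quartile, the same sum, a 2-fold limit and leaving out NONCODE rows. Leaving out NONCODE, Gm and Rik rows was chosen after seeing the data.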

Additional observations from a re-analysis of the deposited data

How the results depend on the processing

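No paired analysis was possible because GW3965 and DMSO have 1 library apiece. No member was called lower under any of the 10 alternatives, and 1 was called higher under 1 of them, the same sum of FPKM. The members' median log2 ratio, 0.20 as deposited, was 0.28 with a pseudocount of 0.1, 0.058 with no filter, -0.048 when centred, -0.0045 at equal upper quartiles and 0.42 at equal sums. The median over all rows moved alongside, to 0.31, 0.072, 0, 0.013 and 0.46. Rows called higher, 411 as deposited, numbered 1024 with a pseudocount of 0.1, 224 at a mean of at least 5 FPKM, 164 centred, 166 with the same upper quartile, 2604 with the same sum, 117 at 2-fold, 262 without NONCODE rows and 195 also without Gm and Rik rows. Rows called lower, 9 as deposited, numbered 20, 5, 40, 35, 1, 0, 4 and 4 under those settings in that order, 14 with a pseudocount of 0.5 and 17 with no filter. Of 152 values of single members 45 moved by more than the distance from the middle to the end of their log2 counting interval. No filter, the 5 FPKM minimum, the 2-fold limit and leaving out rows cannot change a member's log2 ratio. Their values were counted among the 152 as unmoved. All 45 moves thus came from a pseudocount, centring or scaling to the same upper quartile or sum. The share of 45 in 152 understates how often such settings moved a value. Fewer rows tested or a stricter limit accounts for the lower counts at 5 FPKM, at 2-fold and without NONCODE rows. Centring and scaling to the same upper quartile or sum shift the measured rows one way. A smaller pseudocount shrinks the ratios less, and no filter tests more rows. The changes in these counts thus follow from the settings themselves. At the depths recovered, a single read on a 1 kb gene equals 0.0133 FPKM in GW3965 and 0.00982 FPKM in DMSO, which limits statements on genes near 0.1 FPKM.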
